A study of Mus musculus with 4 samples.

Results

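The RNA of 10 genes that make, oxidise or carry lactate and pyruvate was followed in mouse embryonic stem cells (ESCs) given lactate. They are the lactate dehydrogenases Ldha, Ldhb and Ldhd, the monocarboxylate transporters Slc16a1, Slc16a3 and Slc16a7, the transporter chaperones Bsg and Emb, and the mitochondrial pyruvate carrier subunits Mpc1 and Mpc2. They were chosen by name for these roles, as 10 of the 55335 genes in the deposited counts. Of the 10, 9 passed the filter on low counts, as did 18661 genes in all, and Slc16a7 did not.

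RNA-seq was done on total RNA of AB2.2 mouse ESCs, in 2 control libraries and 2 libraries of cells held in 50 mM lactate for 24 h. Both groups were grown on mouse embryonic fibroblast feeder cells in medium that held fetal bovine serum (15%), leukemia inhibitory factor (LIF, 1000 U/ml), the GSK3 inhibitor CHIR99021 (3 μM) and the MEK inhibitor PD0325901 (1 μM). All libraries came from this 1 cell line, and nothing in the labels says that they came from separate cultures, so the p-values measure only the spread between these libraries. Control replicates 1 and 2 had 18067562 and 19077885 reads on genes, and lactate replicates 1 and 2 had 18542554 and 18948861. Values are given in this order throughout.

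Lactate dehydrogenase interconverts pyruvate and lactate while NADH and NAD+ are exchanged. The A subunit encoded by Ldha is known for the reduction of pyruvate to lactate in glycolytic cells, the B subunit encoded by Ldhb for the reverse reaction, and Ldhd encodes a mitochondrial enzyme that acts on D-lactate. Monocarboxylate transporters move lactate and pyruvate with a proton across the plasma membrane, and the mitochondrial pyruvate carrier brings pyruvate into the mitochondrial matrix. Mouse ESCs have a high glycolytic flux and release lactate.

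All 10 genes had reads, and their levels per length spread over several orders of magnitude. In FPKM, the fragments per transcript length and sequencing depth given by RSEM, the control mean was 948 for Ldha, 337 for Bsg and 290.5 for Ldhb, which placed them at ranks 113, 273 and 310 among all genes. The plasma membrane transporters Slc16a3 and Slc16a1 followed at 75.7 and 34.6 FPKM, Mpc1 at 28.9, Emb at 12.3 and Mpc2 at 10.6. Ldhd at 0.87 and Slc16a7 at 0.025 FPKM came last. Of the neighbours in this order, only Emb and Mpc2 had control libraries whose values overlapped.

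The order differed in the lactate libraries at the places of Ldhb and Slc16a1. Ldha was still first at a mean of 567 FPKM, but Ldhb, at 427 FPKM, stood above Bsg, at 317 FPKM. Slc16a1, at 36.5 FPKM, stood beside Slc16a3, at 31.9 FPKM, and the libraries of this pair overlapped, as did those of Slc16a3 and the next gene, Mpc1. Mpc1, Emb, Mpc2, Ldhd and Slc16a7 followed in their control order. TPM gave the same order of the 10 genes in both groups.

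**Figure D1:**
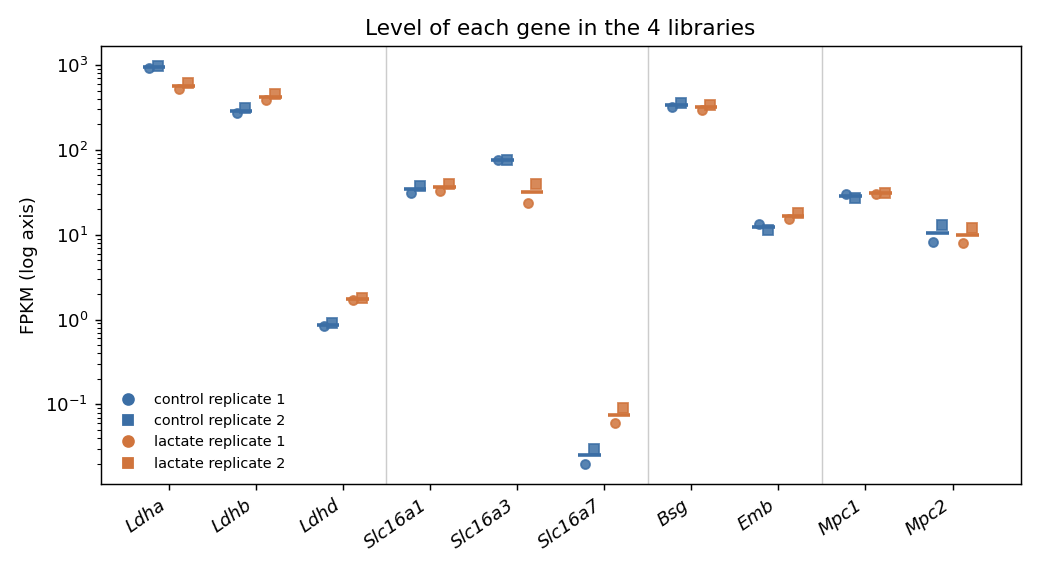
FPKM of the 10 genes on a log axis, with 1 point for each control and each lactate library and a horizontal line at each group mean. Ldha was highest in both groups, Slc16a3 lay above Slc16a1 in both control libraries, and Slc16a7 was at most 0.09 FPKM in every library.

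Sequences upstream of these genes were read from RefSeq (GRCm38.p6), as windows from 250 bases before to 50 bases after an annotated start. Windows were found for 8 of the 10 genes, 10 windows in all. Those of the 3 lactate dehydrogenases and of Slc16a1 and Slc16a3 are shown, because they differ in the letters ACGTG. These letters are 1 form of the core bound by hypoxia-inducible factors and are also contained in the E-box CACGTG bound by Myc and Max. The other form, GCGTG, was not searched for, and it also occurs in windows without ACGTG, such as that of Ldhb. Each line runs from 5′ to 3′ on the gene's strand, and capitals mark ACGTG or its reverse complement CACGT.
Ldha (chr7:46845554-46845853, plus strand): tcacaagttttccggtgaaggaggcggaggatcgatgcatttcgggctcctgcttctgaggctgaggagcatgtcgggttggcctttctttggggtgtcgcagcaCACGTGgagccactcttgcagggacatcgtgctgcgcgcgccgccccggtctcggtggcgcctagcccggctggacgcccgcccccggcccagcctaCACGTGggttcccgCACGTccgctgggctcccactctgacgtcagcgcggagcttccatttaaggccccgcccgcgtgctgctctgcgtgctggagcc
Ldhb (chr6:142507908-142508207, minus strand): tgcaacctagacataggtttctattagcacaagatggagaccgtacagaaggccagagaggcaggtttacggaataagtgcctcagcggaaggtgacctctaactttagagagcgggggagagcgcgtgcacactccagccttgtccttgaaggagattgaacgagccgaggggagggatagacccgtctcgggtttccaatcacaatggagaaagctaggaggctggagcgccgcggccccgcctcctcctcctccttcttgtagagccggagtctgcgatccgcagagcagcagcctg
Ldhd (chr8:111630287-111630586, minus strand): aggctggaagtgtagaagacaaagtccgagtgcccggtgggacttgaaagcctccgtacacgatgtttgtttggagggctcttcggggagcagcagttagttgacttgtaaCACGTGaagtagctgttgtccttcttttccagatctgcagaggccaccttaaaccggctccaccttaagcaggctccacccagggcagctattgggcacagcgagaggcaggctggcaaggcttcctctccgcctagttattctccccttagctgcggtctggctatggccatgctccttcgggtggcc
Slc16a3 (chr11:120948817-120949116, plus strand): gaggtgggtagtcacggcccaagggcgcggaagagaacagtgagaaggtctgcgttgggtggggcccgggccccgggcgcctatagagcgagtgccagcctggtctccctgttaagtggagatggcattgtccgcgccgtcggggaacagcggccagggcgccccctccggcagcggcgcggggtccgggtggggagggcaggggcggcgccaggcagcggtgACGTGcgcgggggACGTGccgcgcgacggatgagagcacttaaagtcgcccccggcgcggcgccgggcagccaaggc
Slc16a1 (chr3:104638414-104638713, plus strand): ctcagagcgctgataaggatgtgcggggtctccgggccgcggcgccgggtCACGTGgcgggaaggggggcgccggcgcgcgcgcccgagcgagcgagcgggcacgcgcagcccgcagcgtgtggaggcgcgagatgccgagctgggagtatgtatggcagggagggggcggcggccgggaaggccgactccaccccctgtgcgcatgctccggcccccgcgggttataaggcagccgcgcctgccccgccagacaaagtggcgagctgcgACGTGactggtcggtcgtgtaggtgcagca

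The Ldha window held 3 sites with ACGTG or its complement, which began 145, 48 and 34 bases before the start. Of these, 2 were the palindrome CACGTG. The Slc16a3 window held 2 sites, which began 27 and 14 bases before the start. The Slc16a1 window held 2, of which 1 was CACGTG, at 200 bases before and 20 bases after the start. The Ldhb window held no ACGTG. Of the other windows, that of Ldhd held 1 site, a CACGTG that began 139 bases before the start. Those of Emb, Mpc1 and Mpc2 and the other Ldha window held no ACGTG. Over all 32851 mouse windows of the same length, searched on both strands, 19.6% held ACGTG and 7.15% held CACGTG, against 4 and 3 of the 10 windows here. Windows with ACGTG were those of Ldha and Slc16a3, with lower values in lactate, of Ldhd, with higher values, and of Slc16a1, whose groups overlapped. The matches describe letters only. Binding was not measured, and a link between the sites and the RNA levels was not tested.

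The first comparison asked which of these genes had another RNA level after 24 h in lactate. With edgeR's quasi-likelihood test, calls needed an adjusted p-value below 0.05 (Benjamini-Hochberg over the 18661 genes) and more than a 2-fold change, and 0 of the 9 tested members met both. Over all genes, 168 were called, which was 0.9%. At an unadjusted p-value under 0.05 were 5 of the 9, Ldha and Slc16a3 with lower and Ldhb, Ldhd and Emb with higher values in lactate, against 23.1% of all genes tested. Emb left this set with DESeq2, without a filter, with RSEM's expected counts, with limma, without mitochondrial genes and without control replicate 2, lactate replicate 1 or lactate replicate 2, and Ldhb without control replicate 1 or lactate replicate 2. With DESeq2, the tool used by the study, Slc16a3 was called and Ldha passed the adjusted p-value without a 2-fold change. DESeq2 called 2.11% of the genes it gave an adjusted p-value and put 4.99% under the adjusted threshold alone. In bulk RNA, fewer cells with a transcript and less of it per cell cannot be told apart.

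In CPM, the read counts scaled to library size with TMM factors, the groups did not overlap for 7 of the 9 tested members. Both lactate libraries lay below both control libraries for Ldha, Slc16a3, Bsg and Mpc1, a pattern shown by 25.9% of all genes tested. Both lay above for Ldhb, Ldhd and Emb, as they did for 27% of all genes. In FPKM the groups were apart for 5 of the 9, with Ldha and Slc16a3 lower, as were 17.8% of all genes tested, and Ldhb, Ldhd and Emb higher, as were 27.2%. The median log2 fold change of the 9 members was −0.03, beside 0.01 over all genes.

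**Figure D2:**
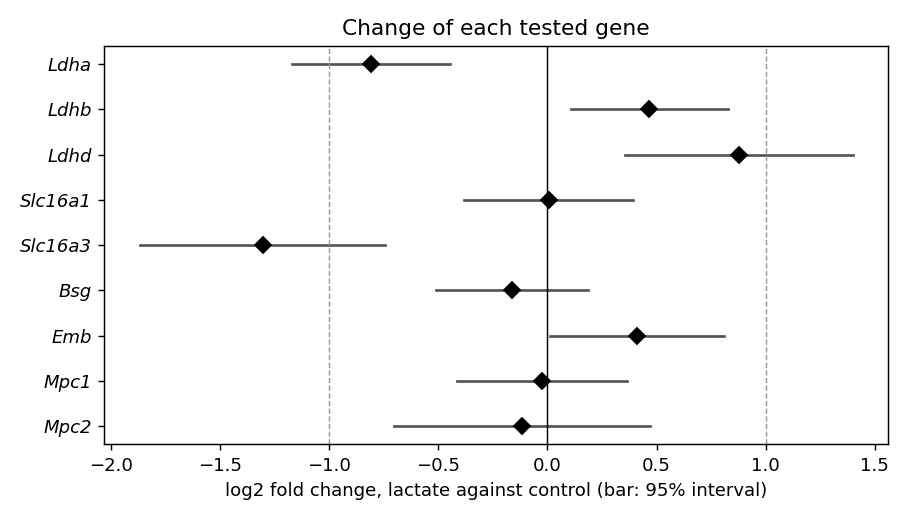
Log2 fold change of lactate against control for the 9 members tested, with the 95% interval from edgeR as bars and dashed lines at a 2-fold change in either direction. Slc16a3 and Ldha lie to the left of 0, Ldhd, Ldhb and Emb to the right, and the intervals of Slc16a1, Bsg, Mpc1 and Mpc2 include 0.

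Among the lactate dehydrogenases, Ldha and Ldhb differed in opposite directions. Ldha (ENSMUSG00000063229.15, chromosome 7, 46841475 to 46855627, plus strand, GRCm38) was covered by 20107 and 22810 control reads and by 11803 and 14125 lactate reads. Per length, its level was 915 and 982 FPKM in control and 525 and 610 FPKM in lactate. Every lactate library was thus below both control libraries on either scale, and the space between the groups was wider than the distance within them. Its CPM was 1182 ± 27.9 (SD, n = 2) in control and 675 ± 57.3 (SD, n = 2) in lactate. The log2 fold change was −0.81 ± 0.15 (SE), with a 95% interval from −1.17 to −0.45, or 1.75-fold lower. The adjusted p-value was 0.0578 with edgeR and 9.6e-04 with DESeq2. Without lactate replicate 2, edgeR's adjusted p-value was 0.0258 at a log2 fold change of −0.90, and with the other 3 libraries left out in turn it was from 0.0964 to 0.148.

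Ldhb (ENSMUSG00000030246.11, chromosome 6, 142490249 to 142507957, minus strand) had 272 and 309 FPKM in control and 393 and 460 FPKM in lactate. The 4598 and 5650 control reads and the 6741 and 8211 lactate reads gave the same order, with both lactate libraries higher. The log2 fold change was 0.47 ± 0.15 (SE), 1.38-fold, with an interval from 0.11 to 0.83, and an adjusted p-value of 0.140 with edgeR.

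Within each library, Ldha made up 77.1% and 76.1% of the summed FPKM of Ldha and Ldhb in control and 57.2% and 57.0% in lactate. The ratio of Ldha to Ldhb was 3.36 and 3.18 in control and 1.33 in each lactate library. The libraries of a group were close to each other in this ratio, and the groups were far apart by comparison. The log2 ratio was lower in lactate by 1.30, a 2.46-fold difference, and with 2 against 2 libraries the exact two-sided permutation test gave p = 0.333, the smallest it can give. The sum of both genes was 1187 and 1291 FPKM in control and 918 and 1070 FPKM in lactate.

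Ldhd (ENSMUSG00000031958.16, chromosome 8, 111623785 to 111630374, minus strand), which encodes the D-lactate dehydrogenase, was rare, with 46 and 56 reads in control and 92 and 106 in lactate. Its FPKM was 0.83 and 0.91 in control and 1.71 and 1.79 in lactate. Both lactate libraries were thus higher, by a log2 fold change of 0.88 ± 0.22 (SE), or 1.84-fold, with an interval from 0.36 to 1.40. The adjusted p-value was 0.0911 with edgeR. Its exons share 2246 bases with those of Znrf1 on the opposite strand, which had 419 and 605 reads in control and 427 and 597 in lactate. Since no source used here says whether the counting used strand, reads of these neighbours cannot be told apart.

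The remaining dehydrogenase genes were few and rare. Ldhc, known from sperm, had 24 and 30 reads in control and 24 and 53 in lactate, and its groups overlapped. Its log2 fold change was 0.42 ± 0.40 (SE), with an adjusted p-value of 0.576 with edgeR. Without lactate replicate 2 this fold change was −0.21. Ldhal6b was at 2.65 and 2.98 FPKM in control and 0.47 and 0.48 FPKM in lactate. From the gene counts its log2 fold change was −0.77 ± 0.27 (SE), with an adjusted p-value of 0.167 with edgeR, but from RSEM's expected counts it was −2.59, and the cause of this gap was not tested. Of the Ldha pseudogenes, Ldha-ps and Ldha-ps3 had 0 reads in every library, and Ldha-ps2 had between 3 and 11. RSEM assigned to Ldha between 89.3% and 90.8% as many fragments as the count table has reads.

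Of the plasma membrane transporters, Slc16a3 had lower values in lactate, while those of Slc16a1 overlapped between the groups. Slc16a3 (ENSMUSG00000025161.16, chromosome 11, 120948480 to 120960868, plus strand) encodes MCT4, a low-affinity transporter known for lactate export from glycolytic cells. It had 1767 and 1952 reads in control against 589 and 1011 in lactate. Its FPKM was 75.9 and 75.4 in control and 23.9 and 40.1 in lactate. The control libraries were nearly equal, and both lactate libraries were below them, replicate 1 further than replicate 2. The log2 fold change was −1.31 ± 0.23 (SE), with an interval from −1.87 to −0.74, or 2.47-fold lower. This was the largest difference among the 9 members, with an adjusted p-value of 0.0563 with edgeR and 1.7e-05 with DESeq2. Leaving out control replicate 2, lactate replicate 1 or lactate replicate 2 gave edgeR an adjusted p-value of 0.00781, 0.00408 or 8.2e-08, with log2 fold changes of −1.31, −1.03 and −1.70, and leaving out control replicate 1 gave 0.0832.

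Slc16a1 (ENSMUSG00000032902.1, chromosome 3, 104638668 to 104658462, plus strand) encodes MCT1, a transporter of higher affinity that carries lactate in either direction. Its FPKM was 31.4 and 37.9 in control and 33.2 and 39.9 in lactate, and the reads were 2433 and 3092 against 2552 and 3304. The groups overlapped, and the spread within each group was larger than the distance between the group means. The log2 fold change was 0.01 ± 0.16 (SE), with an adjusted p-value of 0.989 with edgeR. The 95% interval ran from −0.38 to 0.39, so that changes between 0.768-fold and 1.31-fold were not told apart from no change.

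As a share of the summed FPKM of Slc16a1 and Slc16a3, Slc16a1 was 29.2% and 33.5% in control and 58.2% and 49.9% in lactate. The ratio of Slc16a1 to Slc16a3 was 0.413 and 0.503 in control and 1.39 and 0.995 in lactate. Both lactate libraries were above both control libraries, and the difference in the log2 ratio was 1.37, or 2.58-fold. The exact permutation test gave p = 0.333, again the smallest it can give. The sum was 107 and 113 FPKM in control and 57.1 and 79.9 FPKM in lactate, so the shares differed while the sum was lower.

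**Figure D3:**
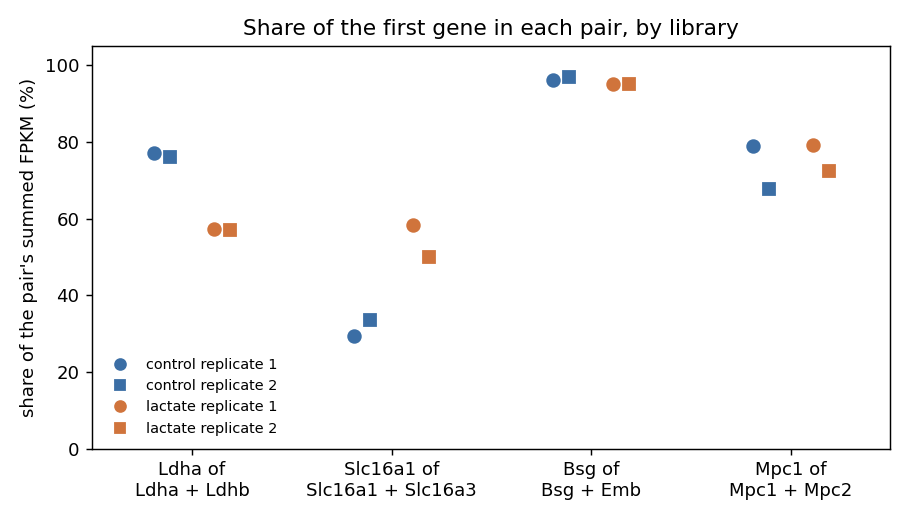
Share in percent that the first gene of each pair takes of the pair's summed FPKM, with 1 point for each library. Ldha made up 76.1% to 77.1% of its pair in control and 57.0% to 57.2% in lactate, while for Mpc1 the libraries of the groups overlapped.

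Slc16a7 (ENSMUSG00000020102.15, chromosome 10, 125219270 to 125389465, minus strand), which encodes MCT2, a high-affinity transporter, had 3 and 2 reads in control and 3 and 4 in lactate, at most 0.09 FPKM. It was below the filter, and no fold is given.

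The chaperones that bring these transporters to the cell surface had small differences. Bsg (ENSMUSG00000023175.15, chromosome 10, 79704491 to 79711969, plus strand) encodes basigin, the partner of MCT1 and MCT4. Its FPKM was 320 and 353 in control and 294 and 340 in lactate, and the groups overlapped. The log2 fold change was −0.16 ± 0.14 (SE), with an interval from −0.51 to 0.19 and an adjusted p-value of 0.550 with edgeR. With 1 library left out this fold change ran from −0.27 to −0.09.

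Emb (ENSMUSG00000021728.8, chromosome 13, 117208536 to 117274415, plus strand) encodes embigin, which is known as the partner of MCT2. Its FPKM was 13.2 and 11.3 in control and 15.2 and 17.9 in lactate, with both lactate libraries higher. The log2 fold change was 0.41 ± 0.17 (SE), 1.33-fold, with an interval from 0.01 to 0.81 and an adjusted p-value of 0.207 with edgeR. With 1 library left out it ran from 0.26 to 0.56, and the same-numbered libraries differed by 0.22 and 0.61 on the log2 CPM scale. The exons of Emb share 686 bases with Gm17509 on the opposite strand.

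Bsg was 24.2 and 31.3 times as abundant as Emb per length in control and 19.3 and 19.0 times in lactate. The log2 ratio was lower in lactate by 0.53. The exact permutation test gave p = 0.333, the smallest it can give with 2 against 2 libraries.

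The subunits of the mitochondrial pyruvate carrier, which work as a heterodimer, had intervals that included 0. Mpc1 (ENSMUSG00000023861.17, chromosome 17, 8282904 to 8297661, plus strand) had 30.6 and 27.2 FPKM in control and 30.1 and 31.3 FPKM in lactate. Its log2 fold change was −0.03 ± 0.16 (SE), with an interval from −0.42 to 0.36 and an adjusted p-value of 0.943 with edgeR. The sign depended on the scaling, at 0.04 with library totals in place of TMM.

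Mpc2 (ENSMUSG00000026568.6, chromosome 1, 165460637 to 165481214, plus strand) had 8.19 and 13.0 FPKM in control and 7.96 and 11.9 FPKM in lactate. In both groups replicate 2 was higher, and the groups overlapped. Its log2 fold change was −0.12 ± 0.24 (SE), with an interval from −0.71 to 0.47 and an adjusted p-value of 0.822 with edgeR. The ratio of Mpc1 to Mpc2 was 3.74 and 2.10 in control and 3.78 and 2.63 in lactate, and the exact permutation test of its difference of 0.17 on the log2 scale gave p = 0.667.

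For Mpc1, too, some reads have an uncertain origin. Its exons share 480 bases with 4930506C21Rik on the opposite strand, which had between 170 and 196 reads, and the pseudogene Mpc1-ps had between 32 and 45 reads. RSEM gave Mpc1 between 110% and 128% as many fragments as the count table has reads, beside 86.2% to 87.9% over all genes.

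The pattern of Ldha and of Slc16a1 over the 4 libraries was set against that of 18646 other genes tested, those with reads in every library, by the Euclidean distance between centred log2 CPM profiles. Closest to Ldha were Lat, Nectin4 and Dynlt1f, at distances of 0.0247, 0.0323 and 0.0361, beside a median of 0.925. Closest to Slc16a1 were H6pd, Dolpp1 and Rps4x, at 0.0181, 0.0247 and 0.0297, beside a median of 0.538. The list depends on how rare genes are treated. With 0.5 added to each CPM before the log, 2510016D11Rik and Ttc30b took the places of Lat and Nectin4, and Fgf22 that of Rps4x, while Dynlt1f, H6pd and Dolpp1 were among the 3 closest either way. The distances without the added value were chosen for the text after both had been seen. With 4 libraries such closeness is a description, and nothing is known from it about shared control.

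Other transporters of the SLC16 family were mostly rare, and 7 of the 11 beside the members passed the filter. For 6 of the 7 both lactate libraries were above both control libraries in CPM, against 27% of all genes tested, and the groups overlapped for Slc16a13. At an unadjusted p-value under 0.05 were 2 of the 7, against 23.1% of all genes, 0 were called with edgeR or DESeq2, and their median log2 fold change was 0.43 beside 0.01 over all genes. The largest was that of Slc16a10, a carrier of aromatic amino acids, at 0.80 with an adjusted p-value of 0.101 with edgeR. Slc16a9 was at 0.44 with an adjusted p-value of 0.182 with edgeR, and Slc16a5 and Slc16a4 were at 0.43 and 0.48. The most abundant, Slc16a6, had 12.1 and 12.7 FPKM in control and 15.6 and 16.7 FPKM in lactate. From the gene counts its log2 fold change was 0.10, with an adjusted p-value of 0.690 with edgeR. Over the alternatives this fold change ran from 0.05 to 0.38. Of other genes for lactate uptake and sensing, Nptn, a relative of basigin, had a log2 fold change of 0.17, and the sodium-coupled carriers Slc5a8 and Slc5a12 and the lactate receptor Hcar1 were below the filter.

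Of 17 genes for the formation and fates of pyruvate, all were tested, 1 was called, and the median log2 fold change was 0.01, as over all genes when rounded to 2 decimals. The called gene was Gpt2, the mitochondrial alanine aminotransferase, which rose from 14.4 and 16.5 FPKM in control to 37.5 and 39.3 FPKM in lactate. Its log2 fold change was 1.33 ± 0.13 (SE) with an adjusted p-value of 0.0320 with edgeR, which was 0.0607 without control replicate 1. Pkm, the pyruvate kinase gene and the most abundant of this list, was at 1424 and 1675 FPKM in control and 965 and 1022 FPKM in lactate, a log2 fold change of −0.72 ± 0.16 (SE) with adjusted p-values of 0.0771 with edgeR and 0.00514 with DESeq2, which did not call it for want of a 2-fold change. Of the 17 genes, 2 were higher and 4 lower at an unadjusted p-value under 0.05, against 23.1% of all genes. Beside Gpt2 and Pkm, those were 4 genes around pyruvate dehydrogenase, named after their values were seen. Pdk2, a kinase that inactivates the enzyme, was at −0.86 and Pdp2, a phosphatase that activates it, at −0.40, with adjusted p-values of 0.119 and 0.171 with edgeR. Its subunits Pdha1 and Pdhb were at −0.33 and 0.56, with adjusted p-values of 0.198 and 0.153 with edgeR.

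The genes that exchange NADH between cytosol and mitochondria, and those of the glyoxalase route to D-lactate, had no member at an unadjusted p-value under 0.05. Of 10 shuttle genes, edgeR and DESeq2 each called 0, and 5 were above and 5 below 0, with a median of 0.00 and the largest difference for Mdh1, the cytosolic malate dehydrogenase, at −0.39. Got1, Gpd2 and Gpd1l were at 0.32, −0.21 and −0.19, and Mdh2, the most abundant in control, at −0.13. DESeq2 and edgeR both called 0 of Glo1, Hagh and Park7, whose log2 fold changes were −0.16, −0.07 and −0.23.

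Regulators known to act on Ldha or Slc16a1 had the most genes at a low unadjusted p-value, with 3 higher and 4 lower of 11 tested against 23.1% of all genes, though edgeR called 0. Egln1, a prolyl hydroxylase that marks hypoxia-inducible factors for degradation, had a log2 fold change of −0.996 ± 0.17 (SE), with adjusted p-values of 0.0540 with edgeR and 8.5e-04 with DESeq2, which called it. Epas1, which encodes HIF-2α, was at −1.09 ± 0.19 (SE), with adjusted p-values of 0.0553 with edgeR and 0.00933 with DESeq2, which called it as well. Mycn was higher, at 0.63 with adjusted p-values of 0.0674 with edgeR and 0.0494 with DESeq2. Vhl, whose product binds hydroxylated hypoxia-inducible factors for degradation, had 12.6 and 13.2 FPKM in control and 18.1 and 20.3 FPKM in lactate, or 0.50 on the log2 scale, and edgeR gave an adjusted p-value of 0.111. Max, the partner of Myc, was at −0.51, and its adjusted p-value was 0.161 with edgeR. Egln3, Myc and Hif1a, named after their values were seen, were at −0.44, 0.64 and 0.37. The median of the list was −0.37. This list was chosen with earlier results of these libraries known, so its counts are a description.

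**Figure D4:**
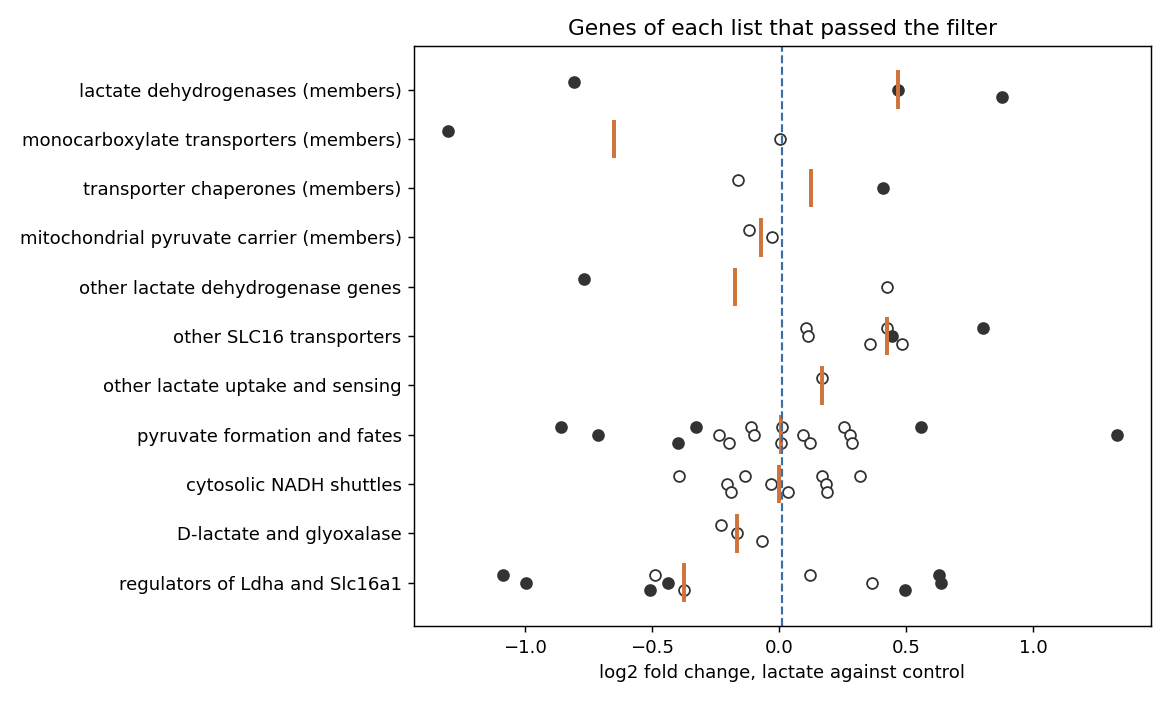
Log2 fold changes of lactate against control by gene list, with 1 point for each gene tested (filled at an unadjusted edgeR p-value under 0.05), a short line for each list's median and a dashed line for the median of all genes. The fitted values of the 7 tested SLC16 genes beyond the members lie between 0.10 and 0.80, 2 of them filled, and Gpt2 at 1.33 stands alone on the right of the pyruvate list.

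The libraries had the markers of ESCs, and the feeder cells were present too. All 10 ESC markers had reads in every library, with a summed CPM of 5687 and 6147 in control and 6288 and 7082 in lactate. Dppa5a was the most abundant of them in FPKM. At an unadjusted p-value under 0.05, 4 of the 10 were higher and 0 lower in lactate, against 23.1% of all genes in either direction, and the median was 0.31. These were Sox2, Zfp42, Tbx3 and Klf4, at log2 fold changes of 0.56, 0.52, 0.43 and 0.39, and edgeR and DESeq2 called 0. Of the 10 ESC markers, 8 were above 0 and 2 below. The lower ones, named after their values were seen, were Pou5f1 at −0.40, with groups that overlapped, and Esrrb at −0.14. Both lactate libraries lay below both control libraries in CPM for Esrrb. All 12 feeder fibroblast markers also had reads in every library, with a summed CPM of 459 and 655 in control and 456 and 514 in lactate. Col1a1, the most abundant of these, was at 32.4 and 50.4 FPKM in control and 35.1 and 41.4 FPKM in lactate. The feeder sums overlapped between the groups, but single markers did not all do so. Of the 12, 1 was higher and 2 were lower at an unadjusted p-value under 0.05, about the 23.1% of all genes, and 0 were called with edgeR or DESeq2. Col3a1 had 3.54 and 4.49 FPKM in control and 2.15 and 2.92 FPKM in lactate, a log2 fold change of −0.90 with adjusted p-values of 0.105 with edgeR and 0.0397 with DESeq2. Prrx1 was at −0.57 and Pdgfrb at 0.56, with adjusted p-values of 0.124 and 0.105 with edgeR, and neither overlapped between the groups. Col1a2 was at −0.56 with groups that overlapped. Primitive endoderm markers were low, with Gata4, Gata6, Sox17, Sox7, Pdgfra, Dab2 and Foxa2 together at 16.4 and 14.4 CPM in control and 27.4 and 20.2 CPM in lactate. Dab2 led that list, at 2.16 and 2.11 FPKM in control and 3.25 and 4.48 FPKM in lactate. In the 5 that passed the filter both lactate libraries were above both control libraries in CPM, as in 27% of all genes, the median was 0.67, and 2 had an unadjusted p-value under 0.05. Pdgfra, Sox7, Gata4 and Dab2 were at 0.99, 0.75, 0.67 and 0.46, and edgeR and DESeq2 called 0. The part of feeder or endoderm cells in the levels of Ldha, Slc16a3 and the other members was not tested.

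The share of gene reads on mitochondrially encoded genes differed more between the replicate numbers than between the groups. It was 5.48% in control and 5.72% in lactate for replicate 1, and 2.43% and 2.82% for replicate 2, a little higher in lactate in both. The differences of Ldha between same-numbered libraries were −0.87 and −0.75 on the log2 CPM scale, those of Ldhb 0.45 and 0.48, and those of Ldhd 0.90 and 0.86. For Slc16a3 they were −1.69 and −1.01, for Bsg −0.22 and −0.11, for Mpc1 −0.05 and −0.01, and for Mpc2 −0.13 and −0.11. Those of Slc16a1 were −0.04 and 0.04.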

How the data were processed

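Total RNA of AB2.2 mouse ESCs was sequenced after TruSeq library preparation. Per the labels and methods, the authors trimmed reads with cutadapt 1.16, mapped them to mm10 with STAR and quantified transcripts with RSEM. Per the methods, the authors counted reads in exons of GENCODE M23 with STAR's GeneCounts mode, with a strand setting not given in the sources used here. They deposited raw read counts per gene and per family of transposable elements. RSEM's expected counts, TPM values and FPKM values were deposited in a table per library. Whether the deposited raw counts came from the GeneCounts mode was not checked. Fold changes and p-values below were computed from the raw counts in R 4.3.3 with edgeR 4.0.16 (filterByExpr, TMM, quasi-likelihood test in its legacy form, no replicate term). The 1153 families of transposable elements were left out. DESeq2 1.42.0 and limma 3.58.1 were used as alternatives. The SE is the log2 fold change divided by the square root of F, and the interval uses the test's degrees of freedom. Levels between genes were compared in the deposited FPKM. Positions are from GENCODE M21 (GRCm38), where 54587 gene identifiers matched with version, all 10 members included.

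The members and lists were chosen with earlier results of these data known. Genes named are all members, and of each list the called genes, otherwise up to 4 with the smallest unadjusted p-value and the most abundant. The replicates differed by far more than counting noise (chi-square per degree of freedom 22.3 in control and 21.6 in lactate), and the common biological coefficient of variation was 15.9%. Total reads limit rare genes such as Ldhd and Slc16a7 most. Alternatives were DESeq2, other scaling factors, other filters, a replicate block, RSEM's expected counts, limma on log2(FPKM + 1) and log2(FPKM + 0.1), mitochondrial genes left out, TPM for levels and ratios, and each library left out.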

Additional observations from a re-analysis of the deposited data

How the results depend on the processing

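The directions of Ldha, Ldhb, Ldhd, Slc16a3, Bsg and Emb held under every alternative run. Over all genes, edgeR called 103 higher and 65 lower. DESeq2 called 190 and 168, with 1 member lower and 2 at an adjusted p-value under 0.05. Without a filter on low counts edgeR called 482 and 325, again with 1 member lower and 2 under the adjusted threshold, which 1647 of 32923 genes passed. Library totals alone gave 40 lower genes, and RSEM's expected counts gave 27 higher and 17 lower. All 3 settings of limma-trend on FPKM called 0 higher and 0 lower, with 4 members at an unadjusted p-value under 0.05, as were 13.0% to 14.8% of all genes. Leaving out 1 library gave 45 to 502 higher and 39 to 367 lower genes, with 0 to 1 member called lower, 0 to 2 members under the adjusted and 3 to 4 under the unadjusted threshold, passed by 0.428% to 7.14% and by 14.6% to 21.5% of all genes. A left-out library leaves a group with 1 library, whose spread is then taken to be that of the other group. The causes were not tested.

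The labels number the replicates alike in both groups, without saying that a number marks a shared culture or day. Deviations of same-numbered libraries from their group means correlated at 0.638 over 18661 genes, but 2 pairs are too few to take the numbers as pairs. With a replicate block, edgeR called 761 higher and 395 lower genes, with 1 member called lower (Slc16a3) and 6 of 9 at an adjusted p-value under 0.05 (Ldha, Ldhb, Ldhd, Slc16a3, Bsg and Emb), a threshold that 8297 of the 18661 genes (44.5%) passed under the block.

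Values near 0 changed sign. With 1 library left out, so did some further from 0, such as Ldhc and Dppa5a, at 0.42 and 0.36 in the main fit. Slc16a1 was at −0.0147 with DESeq2, −0.000112 with RLE factors, −0.0382 without a filter, −0.00960 from expected counts and −0.00758 without mitochondrial genes, and at −0.15 to 0.12 with 1 library left out. Mpc1 was at 0.00541 with upper-quartile factors, 0.0401 with library totals, and 0.0866, 0.0893 and 0.0866 with limma. With 1 library left out, Mpc2 was at −0.35 to 0.10, Ldhc at −0.21 to 0.82, Park7 at −0.47 to 0.0233, Hagh at −0.36 to 0.14, Col1a1 at −0.47 to 0.14 and Dppa5a at −0.44 to 0.84. Values of other genes outside the members that kept their sign also moved by over 1.5 times, such as Mdh1 (−0.63 to −0.15), Got1 (0.11 to 0.50), Dab2 (0.09 to 0.73), Sox7 (0.43 to 1.12), Hif1a (0.09 to 0.57), Slc16a4 (0.18 to 0.84) and Col1a2 (−0.89 to −0.16). Among members that kept their sign, Bsg was at −0.27 to −0.09 with 1 library left out, beside −0.16 in the main fit. Ldhd was at 0.56 with limma on log2(FPKM + 1), beside 0.88 in the main fit. With 1 library left out, the difference in the log2 ratio of Mpc1 to Mpc2 was at −0.24 to 0.59. Those of Ldha to Ldhb, Bsg to Emb and Slc16a1 to Slc16a3 stayed at −1.34 to −1.26, −0.71 to −0.34 and 1.13 to 1.61.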
